A study of Sus scrofa with 11 samples.

Results

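The respiratory chain of mitochondria is built from subunits encoded in the nucleus and in the mitochondrial genome, and its nuclear genes were followed here in pig heart slices kept in culture. Members were taken by symbol, as every gene whose name begins with NDUF (complex I), SDHAF or SDH followed by A, B, C or D (complex II), UQCR (complex III), COX and a digit (complex IV) or ATP5 (complex V), without the mitochondrially encoded COX1, COX2 and COX3. The rule found 56 of the 16319 genes in the table, 28 in complex I, 5 in complex II, 6 in complex III, 11 in complex IV and 6 in complex V. Of these, 42 encode subunits, 12 encode assembly factors, ATP5IF1 encodes the inhibitor of ATP synthase, and COX7A2L encodes a factor that joins complexes III and IV into supercomplexes. NDUFA4 was kept in complex I by its symbol, although its protein is now counted as a subunit of complex IV. Chain genes without a matching symbol, such as NDUFV2, NDUFS8, COX6A2, COX7A1 and most ATP synthase genes, were not analysed here.

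RNA was sequenced from 11 libraries of heart tissue of wild-type (WT) Yorkshire pigs aged 3 months. At day 0, 3 libraries came from slices that had not been cultured, and the cultured slices, named Stim in the table, gave 2 libraries after 2 days and 3 each after 6 and 10 days. The labels name neither the stimulation nor the part of the heart, and the culture has no unstimulated counterpart among these libraries, so time in culture and stimulation cannot be told apart. They also do not say whether replicates came from separate animals, so the p-values below measure only the spread between these libraries, which may be technical.

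Complex I passes electrons from NADH, and complex II from succinate, to ubiquinone. Complex III hands them to cytochrome c and complex IV to oxygen, and complexes I, III and IV pump protons across the inner membrane, whose return through complex V drives ATP synthesis. Heart muscle cells are among the cells richest in mitochondria, and contraction rests largely on ATP made in this way. Assembly factors help build the complexes and are not part of the finished enzymes.

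Values are FPKM, in which fragments are divided by gene length and by the size of the library, so levels can be set side by side between genes. The libraries held 11701694 to 16775194 reads. Day 0 replicate 2 and day 2 replicate 1 stood apart, with 4536 and 4017 genes listed at 0 against 1310 to 2331 in the remaining libraries. The heart label was checked against cardiac muscle markers, of which 6 of 10 were in the table (ACTN2, MYBPC3, MYH6, MYL3, RYR2 and TNNT2). Their summed level was 49515 to 78341 FPKM at day 0, 1637 to 9352 at day 2, 8697 to 19876 at day 6 and 13.3 to 56.4 at day 10. In the same order of days, fibroblast markers (7 of 8 in the table) summed to 328 to 1903, 395 to 446, 317 to 592 and 1751 to 8313 FPKM, and smooth muscle markers (5 of 6) to 175 to 415, 142 to 305, at most 172 and 2274 to 3019 FPKM. Endothelial markers (5 of 7) summed to 150 to 577 FPKM at day 0 and 306 to 2264 in culture, leukocyte markers (5 of 8) to 63.2 to 71.0 and at most 116 FPKM, and none of 4 adipocyte markers was in the table.

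Together the 56 members took a larger share of reads at day 0 than in any cultured library. Day 0 libraries gave 2.41%, 5.25% and 2.59% of their reads to them, day 2 libraries 1.43% and 0.776%, day 6 libraries 1.01%, 1.41% and 1.08%, and day 10 libraries 1.28%, 1.25% and 0.651%. Their summed FPKM was 24014, 60272 and 26635 at day 0 and lay between 6202 and 17535 in the 8 cultured libraries, without overlap. Day 0 replicate 2 was the highest library by both measures, and the remaining day 0 libraries were also above every cultured one. In bulk slices, fewer cells of a type and less RNA per cell cannot be told apart.

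**Figure D1:**
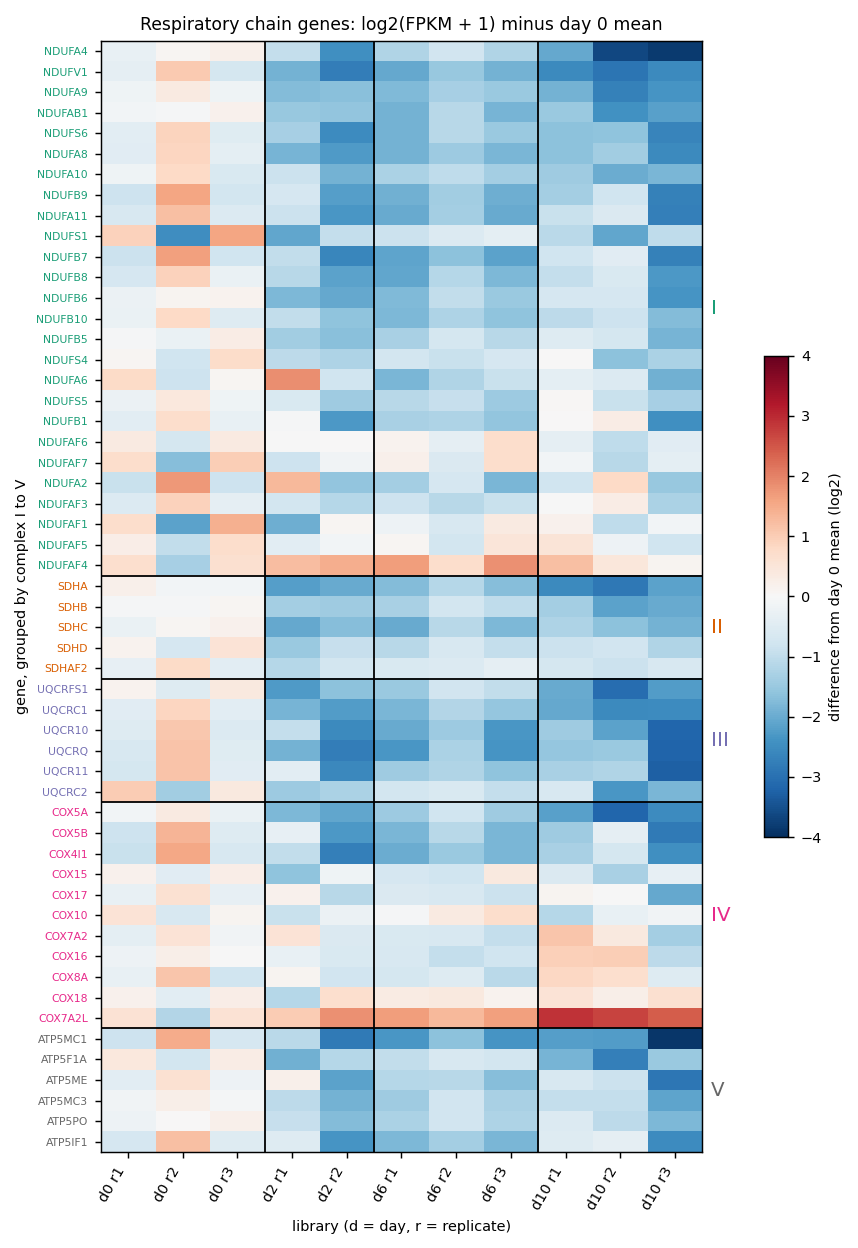
Each row is a member tested (1 of the 55 is not drawn) and each column 1 library (d for day, r for replicate); colour gives log2(FPKM + 1) minus the gene's day 0 mean, blue for lower and red for higher. Of the 41 subunit genes tested, 33 are below their day 0 mean in all 8 cultured libraries (9.11% of all genes tested), COX7A2L is red in all of them, and short genes such as NDUFB7 and NDUFA2 are red in day 0 replicate 2.

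Day 2 slices had lower levels of a small set of catalytic and accessory subunit genes than day 0 slices. Of 55 members tested, 9 fell and 0 rose at a limma adjusted p under 0.05, against 3.14% of all 12625 genes tested that fell and 5.76% that rose. Members of complexes I (4 of 27), II (2 of 5), III (2 of 6) and IV (1 of 11) were among them, and 0 of 6 passed in complex V, where 4 were under an unadjusted p of 0.05 (26.2% of all genes) and 1 fell with limma voom. The median log2 fold change was -1.38 over the members and 0.51 over all genes. Day 2 libraries lay below every day 0 library for 33 members, a pattern seen in 9.18% of all genes, and above them for 2, against 26.7%. COX7A2L was the 1 member above day 0 at an unadjusted p under 0.05, and limma voom called 0 higher. With day 2 replicate 1 or 2 left out, 1 library remained in that group, and the members' median log2 fold change was -1.65 or -1.0. With day 0 replicate 1, day 0 replicate 3 or day 6 replicate 3 left out 5 members passed, and with day 0 replicate 2 left out 16 passed. Of all 12625 genes, 260, 273, 313 and 921 were lower in these 4 fits, in the same order.

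At day 6 the members that passed were all in complexes I and II. The test called 6 members lower (4 of 27 in complex I and 2 of 5 in complex II) and 0 higher, against 1.76% of all genes lower and 9.55% higher. In complexes III, IV and V, 0 members passed. Under an unadjusted p of 0.05 were 4 of 6 in complex III, 3 of 11 in complex IV and 4 of 6 in complex V (35.5% of all genes). In complex III, UQCRC1, UQCRQ and UQCR10 were just above the threshold (limma adjusted p = 0.0504, 0.0558 and 0.0599), and limma voom called 1 lower. The median log2 fold change was -1.20 over the members and 0.88 over all genes. All 3 day 6 libraries lay below all day 0 libraries for 38 members (6.76% of all genes) and above them for 2 (38.8%). Above day 0, 2 members (COX7A2L and NDUFAF4) were under an unadjusted p of 0.05, and limma voom called 0 higher. Without day 6 replicate 1 or day 6 replicate 3 the test called 0 members, without day 0 replicate 3 it called 1, and without day 6 replicate 2 it called 3. Of all 12625 genes, 14, 39, 122 and 132 were lower in these fits, in the same order.

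By day 10 the calls reached every complex. Of the 55 members, 17 fell and 1 rose, against 6.23% of all genes lower and 11.9% higher. Lower members numbered 7 of 27 in complex I, 3 of 5 in complex II, 4 of 6 in complex III, 1 of 11 in complex IV and 2 of 6 in complex V, and the higher one, COX7A2L, was in complex IV. The median log2 fold change was -1.28 over the members and 0.51 over all genes. All day 10 libraries lay below all day 0 libraries for 27 members (9.28% of all genes) and above them for 1 (25.1%). Leaving out day 10 replicate 3 left 11 calls (10 lower and 1 higher), with 605 of all 12625 genes lower and 942 higher. Of the 18 calls, 10 were kept under all 25 alternatives tried, those of NDUFA4, NDUFA9, NDUFAB1, NDUFV1, SDHA, SDHB, UQCRC1, UQCRFS1, COX5A and COX7A2L. Of the 9 calls at day 2 and the 6 at day 6, 0 were kept under all 25, which holds for each gene named below as lower on those days.

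Since all 3 comparisons share the day 0 libraries, their values are given side by side and are not independent of each other. The median of all genes was above 0 in each of them, and with median ratio scaling of the libraries it came to 0.00 at day 2, 0.12 at day 6 and 0.07 at day 10. Under that scaling the members' medians were -2.17, -2.35 and -2.01, and 8, 9 and 18 members fell, against 6.46%, 4.72% and 9.86% of all genes. The 3 cardiac muscle marker ranges in culture lay below that of day 0 on every day, and all 6 markers tested fell at day 10. Their part in the members' lower values was not tested.

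**Figure D2:**
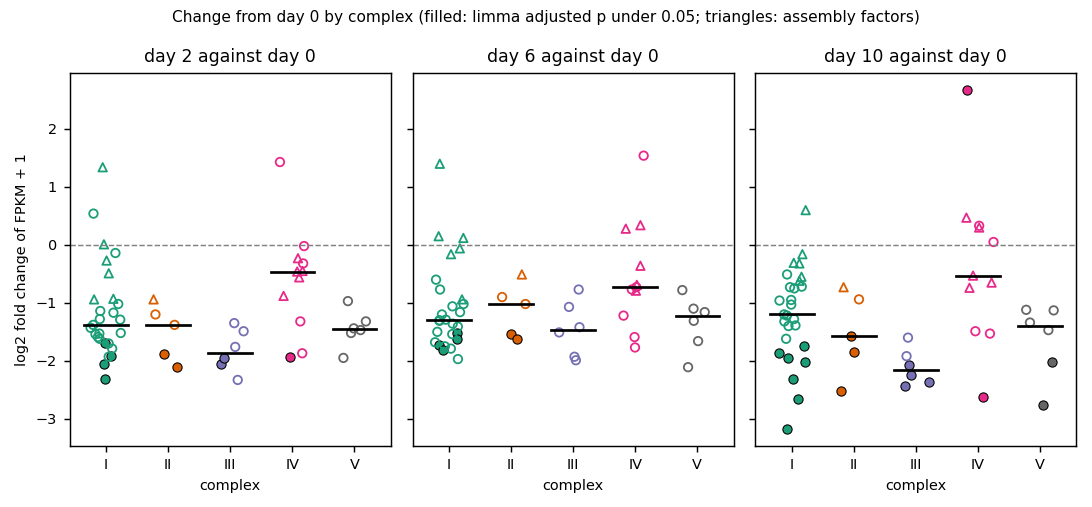
Each point is a member's log2 fold change of FPKM + 1 against day 0 (vertical axis) by complex (horizontal axis), 1 panel per day; filled points passed limma at an adjusted p under 0.05, triangles are assembly factors and bars are medians. Filled points number 9, 6 and 18 from left to right, and at day 10 the median was -2.15 in complex III and -0.53 in complex IV. Complex III had 0 assembly factors among its 6 members and complex IV had 5 among 11. The 5 subunit genes of complex IV alone had a day 10 median of -1.49.

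In complex I, the gene of the subunit that binds NADH and FMN, NDUFV1 (ENSSSCG00000012896), stood at 481, 1270 and 377 FPKM in the day 0 libraries, 166 and 89.4 in those of day 2, 147, 214 and 166 in those of day 6 and 104, 80.7 and 105 in those of day 10. Every cultured library was below every day 0 library. The gene fell at day 2 (log2 fold change -2.32 ± 0.55 SE, limma adjusted p = 0.0226), at day 6 (-1.82 ± 0.49, limma adjusted p = 0.0362) and at day 10 (-2.66 ± 0.49, limma adjusted p = 0.00264). Its mean at day 10 was 96.5 ± 13.8 FPKM (SD, n = 3), 7.35-fold lower than the 709 ± 489 FPKM of day 0 (SD, n = 3). NDUFS1, a further core subunit, which holds iron-sulfur clusters, was at 146, 12.9 and 233 FPKM at day 0, so that day 0 replicate 2 was its lowest library of all, and it had a log2 fold change of -1.39 ± 0.83 at day 10 (limma adjusted p = 0.274).

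NDUFA9 (ENSSSCG00000000719), an accessory subunit at the joint of the peripheral and membrane arms, was at 291, 421 and 296 FPKM on day 0, then 97.9 and 104 on day 2, 96.8, 131 and 118 on day 6 and 88.3, 49.6 and 63.7 on day 10. The cultured libraries did not reach the day 0 range on any day. NDUFA9 fell at day 2 (log2 fold change -1.70 ± 0.44), day 6 (-1.52 ± 0.39) and day 10 (-2.32 ± 0.39), with limma adjusted p = 0.0303, 0.0306 and 0.00142. NDUFA8 (ENSSSCG00000005528), an accessory subunit of the intermembrane space side, was at 450, 1119 and 475 FPKM at day 0 and between 105 and 234 FPKM in culture. It fell on each day, by a log2 fold change of -2.06 ± 0.53, -1.73 ± 0.48 and -1.87 ± 0.48 (limma adjusted p = 0.0315, 0.0384 and 0.0171), and its day 10 call ended without day 10 replicate 3 (limma adjusted p = 0.0661).

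NDUFAB1 (ENSSSCG00000010795), the mitochondrial acyl carrier protein, which is also a complex I subunit, was at 364, 381 and 444 FPKM in the day 0 libraries, 138 and 132 in those of day 2, 106, 184 and 107 in those of day 6 and 140, 72.6 and 87.8 in those of day 10. Day 0 libraries were close to each other, at 397 ± 42.2 FPKM (SD, n = 3), and above all others. It fell at day 6 (log2 fold change -1.62 ± 0.41, limma adjusted p = 0.0294) and day 10 (-2.02 ± 0.41, limma adjusted p = 0.00473), and at day 2 its value was -1.54 ± 0.46 (limma adjusted p = 0.0546).

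NDUFA4 (ENSSSCG00000024313) had the highest complex I mean at day 0, with 1975, 2553 and 2755 FPKM. It was at 1235 and 441 FPKM on day 2, 1042, 1413 and 1047 on day 6 and 584, 192 and 167 on day 10, so that day 10 lay below both day 0 and day 6 without overlap. Its fall at day 10 was the largest among the members on the log2 scale in this fit, -3.17 ± 0.56 (limma adjusted p = 0.00187), from 2428 ± 404 to 315 ± 234 FPKM (SD, n = 3 each). At day 2 and day 6 its log2 fold changes were -1.70 ± 0.62 and -1.06 ± 0.56 and did not pass (limma adjusted p = 0.106 and 0.183). NDUFA4L2 (ENSSSCG00000027621), its paralogue known as a target of hypoxia signalling, was between 0.132 and 1.06 FPKM in the 11 libraries, with overlapping groups, and was the 1 member not tested, as its mean was below 1 FPKM.

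By subfamily, 5 of 8 members named NDUFA (NDUFAB1 included) fell at day 10 (6.23% of all genes), with a median log2 fold change of -1.81. In the NDUFB group of membrane arm subunits, 0 of 7 passed at day 10, with a median of -1.22. Of these, 5 were under an unadjusted p of 0.05 (32.8% of all genes), and limma voom also called 0. At day 2 and day 6 the medians were -1.57 and -1.42 for NDUFA and -1.53 and -1.54 for NDUFB. At day 6, 7 of 8 NDUFA and 7 of 7 NDUFB genes lay below day 0 without overlap (6.76% of all genes). The difference between the subfamilies was not tested. NDUFB9 (ENSSSCG00000005976) was at 623, 3329 and 675 FPKM at day 0 and at 434, 640 and 173 FPKM at day 10, where replicate 2 lay inside the day 0 range (log2 fold change -1.62 ± 0.70, limma adjusted p = 0.128). The members NDUFA10 and NDUFS6, called lower at day 10, and NDUFB6, called lower at day 2, are named here after their values were seen. The day 2 call of NDUFB6 (log2 fold change -1.92 ± 0.55, limma adjusted p = 0.0467) was kept under 8 of 25 alternatives and ended under 17. Without day 10 replicate 3 the calls of NDUFA10 and NDUFS6 ended, at limma adjusted p = 0.0546 and 0.082, and that of NDUFA10 also ended without day 10 replicate 2 (limma adjusted p = 0.0688).

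Complex II is the 1 complex with no mitochondrially encoded subunit and is also an enzyme of the citric acid cycle. SDHA (ENSSSCG00000020686), its flavoprotein with the succinate site, was at 360, 288 and 286 FPKM on day 0, then 66.4 and 76.6 on day 2, 91.3, 138 and 94.4 on day 6 and 52.1, 41.3 and 69.6 on day 10. The highest cultured library, at 138 FPKM, was below the lowest day 0 library, at 286 FPKM. SDHA fell by a log2 fold change of -2.10 ± 0.43 at day 2, -1.54 ± 0.39 at day 6 and -2.52 ± 0.39 at day 10 (limma adjusted p = 0.0116, 0.0289 and 7.55e-04), and its day 10 mean of 54.3 ± 14.3 FPKM was 5.73-fold lower than the 311 ± 41.8 FPKM of day 0 (SD, n = 3 each).

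SDHB (ENSSSCG00000020926), the iron-sulfur subunit, was the steadiest of the complex II genes at day 0, at 273, 272 and 295 FPKM. It stood at 109 and 104 FPKM on day 2, 114, 167 and 137 on day 6 and 109, 63.0 and 67.7 on day 10, below day 0 in all 8 cultured libraries. The day 10 change passed, with -1.84 ± 0.38 on the log2 scale (limma adjusted p = 0.00556), while day 2 and day 6 were at -1.38 ± 0.43 and -1.02 ± 0.38 (limma adjusted p = 0.0629 and 0.0914). SDHC (ENSSSCG00000030318), a membrane anchor, was at 150, 193 and 206 FPKM at day 0 and between 42.9 and 83.9 FPKM in culture. It fell on all 3 days, by -1.88 ± 0.45, -1.63 ± 0.41 and -1.58 ± 0.41 (limma adjusted p = 0.0238, 0.0271 and 0.0177). Its day 10 call ended without day 0 replicate 3, day 10 replicate 2 or day 10 replicate 3, at limma adjusted p = 0.0538, 0.0535 and 0.0576. SDHD, the other anchor, was at 145 to 338 FPKM at day 0 and 99.9 to 138 FPKM at day 10, with a log2 fold change of -0.94 ± 0.43 that did not pass (limma adjusted p = 0.144).

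Complex III had the lowest median log2 fold change of the 5 complexes at day 2 (-1.86), day 6 (-1.46) and day 10 (-2.15). UQCRFS1 (ENSSSCG00000027085), the Rieske iron-sulfur protein, was at 168, 105 and 197 FPKM in the day 0 libraries, 30.9 and 47.3 in those of day 2, 53.9, 89.3 and 76.2 in those of day 6 and 36.3, 17.6 and 31.2 in those of day 10. Day 6 sat between day 0 and the remaining cultured days, and no cultured library reached a day 0 library. The gene fell at day 2 (log2 fold change -1.96 ± 0.50, limma adjusted p = 0.0293) and day 10 (-2.43 ± 0.45, limma adjusted p = 0.00244), with -1.07 ± 0.45 at day 6 (limma adjusted p = 0.114).

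UQCRC1 (ENSSSCG00000011356), a core protein of the matrix side, was at 815, 2036 and 831 FPKM on day 0, then 309 and 234 on day 2, 313, 494 and 380 on day 6 and 267, 189 and 195 on day 10. Again no cultured library reached the day 0 range. It fell at day 2 (log2 fold change -2.05 ± 0.51, limma adjusted p = 0.0276) and day 10 (-2.37 ± 0.46, limma adjusted p = 0.0035), and at day 6 it stood at -1.51 ± 0.46 (limma adjusted p = 0.0504).

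The small complex III subunits were highest in day 0 replicate 2. UQCRQ (ENSSSCG00000014289) was at 801, 2742 and 903 FPKM at day 0 and 428, 452 and 137 at day 10, and UQCR10 (ENSSSCG00000024550) at 639, 1955 and 631 and then 343, 211 and 102 FPKM. Both fell at day 10, by a log2 fold change of -2.07 ± 0.62 and -2.24 ± 0.62 (limma adjusted p = 0.0355 and 0.025). UQCR11 (ENSSSCG00000013436), with 855, 3048 and 1004 FPKM at day 0 and 560, 603 and 142 at day 10, did not pass, although the groups did not overlap (-1.92 ± 0.71, limma adjusted p = 0.0785). Without day 10 replicate 3, the lowest library for all 3 genes, the calls of UQCR10 and UQCRQ ended (limma adjusted p = 0.1 and 0.139). They also ended without day 0 replicate 2 (limma adjusted p = 0.0511 and 0.0784) or day 10 replicate 2 (0.0649 and 0.0519), and that of UQCRQ without day 6 replicate 1, day 6 replicate 3 or day 10 replicate 1 (limma adjusted p = 0.0539, 0.0518 and 0.0531).

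Complex IV was the least uniform. COX5A (ENSSSCG00000024316), a subunit of the matrix side, was at 934, 1290 and 831 FPKM in the day 0 libraries, 288 and 235 in those of day 2, 368, 571 and 373 in those of day 6 and 222, 109 and 173 in those of day 10. The cultured values stayed below day 0 throughout, with day 6 above day 2 and day 10. It fell at day 2 (log2 fold change -1.94 ± 0.48, limma adjusted p = 0.0254) and day 10 (-2.63 ± 0.43, limma adjusted p = 0.00109) and was at -1.22 ± 0.43 at day 6 (limma adjusted p = 0.0763). From 1018 ± 241 FPKM at day 0, its mean came to 168 ± 56.2 FPKM at day 10, 6.06-fold lower (SD, n = 3 each).

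COX4I1 (ENSSSCG00000029034), the ubiquitous form of the largest nuclear subunit, and COX5B (ENSSSCG00000008195), which binds zinc, had the highest day 0 means of complex IV. COX4I1 was at 1106, 6045 and 1313 FPKM at day 0 and 838, 1254 and 378 at day 10, and COX5B at 1387, 6270 and 1714 and then 927, 1914 and 345 FPKM. Day 0 replicate 2 was far above its fellow replicates for both genes, and the groups overlapped at day 10. Their log2 fold changes at day 10, -1.49 ± 0.70 and -1.53 ± 0.75, did not pass (limma adjusted p = 0.162 and 0.176).

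COX7A2 (ENSSSCG00000004480), the form of subunit VIIa found in most tissues, was at 435, 820 and 508 FPKM on day 0, then 823 and 377 on day 2, 373, 362 and 291 on day 6 and 1219, 747 and 218 on day 10. Day 10 libraries spread over more than the day 0 range, and the log2 fold change of 0.05 ± 0.60 did not pass (limma adjusted p = 0.969). It was -0.69 with median ratio scaling, so no direction is given. COX8A (ENSSSCG00000013046), the ubiquitous form of subunit VIII, was at 279, 739 and 195 FPKM at day 0 and 613, 547 and 241 at day 10, also with overlap (0.33 ± 0.56, limma adjusted p = 0.718, and -0.40 with median ratio scaling). The muscle forms COX6A2 and COX7A1 were not analysed here, so no ratio of muscle to ubiquitous forms was formed.

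COX7A2L (ENSSSCG00000008466) was the 1 member that rose. It stood at 56.7, 16.2 and 57.1 FPKM in the day 0 libraries, 77.0 and 138 in those of day 2, 122, 93.9 and 121 in those of day 6 and 288, 249 and 204 in those of day 10. Every cultured library was above every day 0 library, and every day 10 library above every library of day 2 and day 6. At day 10 its mean of 247 ± 42.3 FPKM was 5.70-fold higher than the 43.3 ± 23.5 FPKM of day 0 (SD, n = 3 each). That is 2.67 ± 0.51 on the log2 scale (limma adjusted p = 0.00305). The log2 fold change lay between 1.95 and 2.96 over the 25 alternatives and passed in all of them. Values at day 2 and day 6 were 1.43 ± 0.57 and 1.54 ± 0.51 and did not pass (limma adjusted p = 0.132 and 0.0648).

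**Figure D3:**
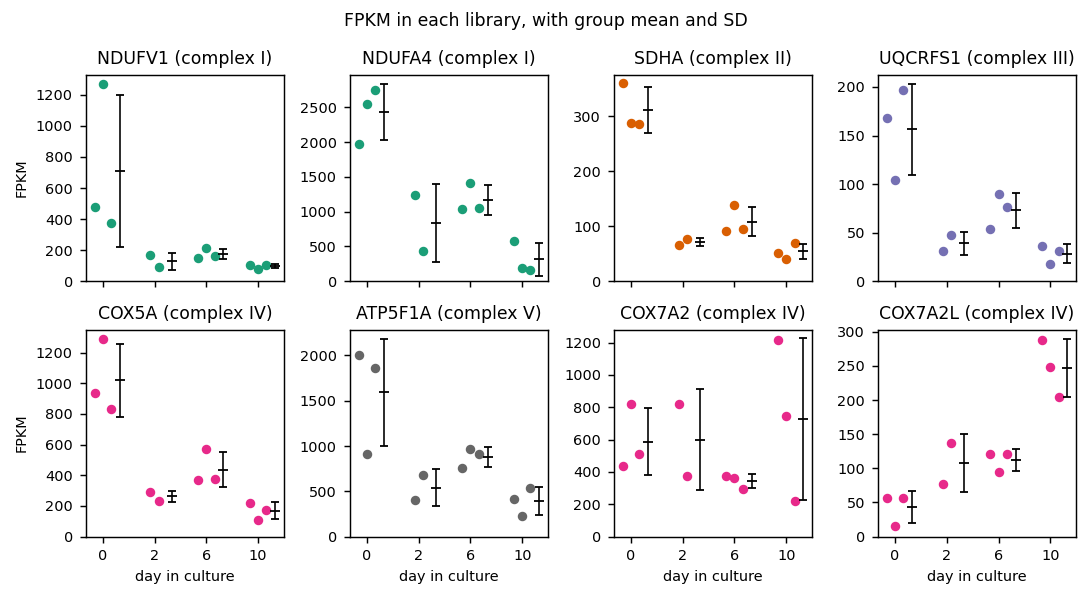
Points are FPKM of single libraries against day in culture for 8 members, with the group mean and SD beside them (n = 3 at days 0, 6 and 10, n = 2 at day 2). SDHA and COX5A lie below day 0 in every cultured library, COX7A2L lies above, and for COX7A2 the groups overlap at day 2 and day 10.

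Complex V was represented by 6 genes. ATP5F1A (ENSSSCG00000004499), the alpha subunit of the catalytic head, was at 2007, 910 and 1856 FPKM on day 0, then 400 and 683 on day 2, 753, 966 and 910 on day 6 and 416, 226 and 537 on day 10. Day 6 reached into the day 0 range and the other days did not. It fell at day 10 (log2 fold change -2.02 ± 0.49, limma adjusted p = 0.0131), and this call ended without day 0 replicate 1 or day 10 replicate 2 (limma adjusted p = 0.0501 and 0.0624). ATP5MC1 (ENSSSCG00000017544), which encodes the membrane ring subunit c, had the highest day 0 mean of all 56 members, with 1763, 8597 and 1963 FPKM. In replicates 1 and 3 of day 0 NDUFA4 was higher. ATP5MC1 was at 1476 and 436 FPKM on day 2, 612, 992 and 609 on day 6 and 677, 660 and 209 on day 10, without overlap with day 0. ATP5MC1 fell at day 10 (log2 fold change -2.77 ± 0.71, limma adjusted p = 0.0174), but not without day 10 replicate 3 (limma adjusted p = 0.0761).

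The stalk subunit gene ATP5PO, the c subunit gene ATP5MC3 and the membrane subunit gene ATP5ME did not pass at any day, with log2 fold changes of -1.13 ± 0.45, -1.34 ± 0.46 and -1.47 ± 0.69 at day 10 (limma adjusted p = 0.101, 0.0606 and 0.157). The 3 genes lay below day 0 without overlap at day 10, a pattern seen in 9.28% of all genes. ATP5IF1, which blocks ATP hydrolysis by complex V, was at 805, 2968 and 905 FPKM at day 0 and 906, 1016 and 227 at day 10, with overlap (-1.12 ± 0.70, limma adjusted p = 0.295).

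Assembly factors had a lower median level than subunits, with overlapping ranges, and none of their values passed the test. The 12 factors were 6 of complex I (NDUFAF1, NDUFAF3, NDUFAF4, NDUFAF5, NDUFAF6 and NDUFAF7), SDHAF2 of complex II and 5 of complex IV (COX10, COX15, COX16, COX17 and COX18). Their median day 0 level was 13.3 FPKM, against 506 FPKM for the 41 subunits tested. At days 2, 6 and 10, limma called 0 of 12 in either direction. Of all genes, 3.14%, 1.76% and 6.23% were called lower and 5.76%, 9.55% and 11.9% higher, so for 12 genes 0 calls lies near these shares. Under an unadjusted p of 0.05 were 0, 1 and 0 factors (26.2%, 35.5% and 32.8% of all genes). Limma voom also called 0, and put 3, 3 and 4 factors under an unadjusted p of 0.05, for which no share of all genes was computed. The median log2 fold change of the factors was -0.47, -0.11 and -0.43 at days 2, 6 and 10, and that of the subunits -1.52, -1.36 and -1.53. Of the 41 subunits, 9, 6 and 17 were called lower (3.14%, 1.76% and 6.23% of all genes). The difference between both groups of genes was not tested. NDUFAF4, named here after its values were seen, was at 12.1, 2.31 and 11.9 FPKM in the day 0 libraries, 18.4 and 21.4 in those of day 2, 25.4, 12.4 and 27.9 in those of day 6 and 18.1, 10.3 and 7.95 in those of day 10. COX17, a copper chaperone and the most abundant factor, was at 410 to 787 FPKM at day 0 and 124 to 553 FPKM at day 10.

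As shares of the summed FPKM of the members, complex I stayed between 29.3% and 35.0% in all 11 libraries. Complex IV took 19.3%, 26.5% and 19.0% at day 0 and 31.0%, 36.2% and 27.5% at day 10, without overlap. Complex III took 14.5%, 16.5% and 13.9% at day 0 and 11.2%, 10.1% and 10.2% at day 10, also without overlap. Complex V took 27.4 ± 1.29% at day 0 and 23.8 ± 1.70% at day 10 (SD, n = 3 each), and the complex II ranges overlapped, at 1.63 to 4.51% and 2.21 to 5.13%. With 3 libraries against 3, an exact two-sided permutation test cannot go below p = 0.1, so these shares are given without a test.

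Among cultured days few members differed. Between day 6 and day 2, 0 of 55 members and 0.0% of all genes passed in either direction, with 1 member under an unadjusted p of 0.05 (4.05% of all genes) and 0 called by limma voom. Day 10 against day 2 also gave 0 members, against 0.333% of all genes lower and 0.333% higher, with 2 members under an unadjusted p of 0.05 (8.13% of all genes) and 0 called by limma voom. The members' median log2 fold changes were 0.18 and 0.09. Day 10 against day 6 gave 1 lower member, NDUFA4, and 0 higher, against 2.99% of all genes lower and 1.91% higher, with a median of -0.14 over the members and -0.43 over all genes.

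NDUFA4 went from 1167 ± 213 FPKM at day 6 to 315 ± 234 FPKM at day 10 (SD, n = 3 each), 3.71-fold lower and with no overlap (log2 fold change -2.11 ± 0.56, limma adjusted p = 0.047). Its call ended without day 6 replicate 1, day 6 replicate 2, day 6 replicate 3, day 10 replicate 2, day 10 replicate 3, day 0 replicate 1 or day 0 replicate 3, with limma adjusted p between 0.0597 and 0.196. It also ended with median ratio scaling (-1.70, limma adjusted p = 0.329). COX5A and UQCRFS1 had log2 fold changes of -1.40 ± 0.43 and -1.37 ± 0.45 between day 6 and day 10, which did not pass (limma adjusted p = 0.0831 and 0.107). COX7A2L was at 1.13 ± 0.51 in the same comparison (limma adjusted p = 0.236).

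Replicates of a day differed by gene length. In day 0 replicate 2, the 27 shorter members, below the median length of 920 bases, had a median log2 ratio of 0.94 to the other day 0 libraries, and the 28 others of -0.31. In day 2 replicate 1 these medians were 0.90 and -0.20 against day 2 replicate 2, and in day 10 replicate 3 they were -1.63 and -0.28 against the other day 10 libraries. Across the 55 genes, which are not independent and share their libraries, Spearman's rho of that ratio with length was -0.45, -0.58 and 0.67 in these 3 libraries. The 17 members that fell at day 10 had a median length of 1269 bases, and the 37 that did not pass had 867 bases. COX5B (758 bases), NDUFB9 (767 bases) and UQCR11 (388 bases), which did not pass, were highest in day 0 replicate 2 and lowest in day 10 replicate 3. The same held for ATP5MC1 (617 bases), UQCR10 (465 bases) and UQCRQ (676 bases), which fell. The part of length in the calls was not tested. With both libraries with the most genes at 0 left out (day 0 replicate 2 and day 2 replicate 1), 7 members fell at day 2, 10 at day 6 and 21 at day 10, against 5.05%, 4.97% and 12.5% of all genes, and COX7A2L was still the 1 higher member at day 10.

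**Figure D4:**
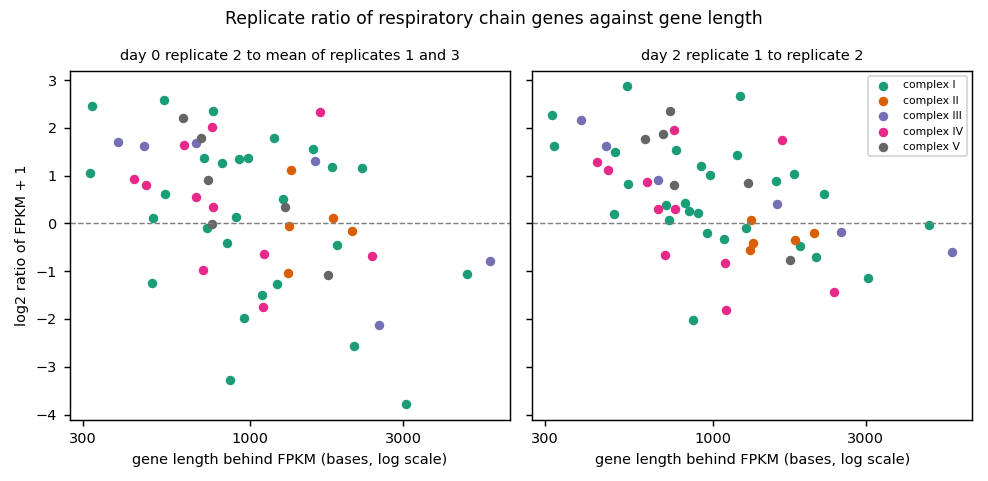
Each point is a member; the horizontal axis is the gene length behind its FPKM in bases (log scale) and the vertical axis the log2 ratio of FPKM + 1 of day 0 replicate 2 to the mean of replicates 1 and 3 (left) or of day 2 replicate 1 to replicate 2 (right), coloured by complex. Shorter genes lie higher in both panels, and Spearman's rho of the ratio to the rest of the group with length was -0.45 and -0.58.

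Genes around the chain were taken from lists of electron carriers and further assembly factors (23 of 43 tested) and of transcriptional regulators (14 of 18 tested). Calls of single genes on both lists come from the fit reported only, and their results under the alternatives are not given. Of the 23, 2 fell at day 2, 2 at day 6 and 3 at day 10, against 3.14%, 1.76% and 6.23% of all genes, with median log2 fold changes of -0.40, -0.20 and -0.07. COQ9, which is needed to make ubiquinone, was at 259, 456 and 286 FPKM on day 0, then 30.0 and 39.8 on day 2, 48.1, 107 and 74.1 on day 6 and 42.0, 30.4 and 28.6 on day 10. It fell on each day, by -3.19 ± 0.48, -2.14 ± 0.43 and -3.25 ± 0.43 (limma adjusted p = 0.00267, 0.0134 and 2.71e-04). ECSIT, a complex I assembly factor, fell on each day as well (-2.19 ± 0.53, -1.81 ± 0.47 and -2.74 ± 0.47, limma adjusted p = 0.0242, 0.0331 and 0.00173), and HIGD2A, linked to complex IV and supercomplexes, fell at day 10 (-1.46 ± 0.46, limma adjusted p = 0.0437).

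Of the 14 regulators, 1 fell and 1 rose at day 2 (3.14% and 5.76% of all genes), 1 rose at day 6 (9.55%) and 3 fell at day 10 (6.23%). ESRRA, a nuclear receptor that binds promoters of many chain genes, was at 128, 188 and 93.9 FPKM in the day 0 libraries, 48.1 and 33.7 in those of day 2, 64.7, 61.1 and 104 in those of day 6 and 15.4 to 24.4 in those of day 10. Day 6 overlapped day 0 and day 10 lay below all other libraries. It fell at day 2 (log2 fold change -1.68 ± 0.48, limma adjusted p = 0.0473) and day 10 (-2.64 ± 0.43, limma adjusted p = 0.00115), and between day 6 and day 10 (-1.83 ± 0.43, limma adjusted p = 0.0285). The coactivator gene PPARGC1A was at 8.82, 0.266 and 16.8 FPKM at day 0 and listed at 0, 0.128 and 0 at day 10. It was called lower at day 10 (-2.54 ± 0.74, limma adjusted p = 0.0322) and is counted among the 3 above. Its mean over all libraries reached the filter of 1 FPKM through day 0 replicates 1 and 3. The filter thus favoured a high day 0 value for this gene, so no fall is concluded from its call. PPRC1, a related coactivator, rose at day 2 and day 6 (2.75 ± 0.66 and 3.02 ± 0.59, limma adjusted p = 0.0231 and 0.0117).

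The 13 protein-coding genes of the mitochondrial genome, which complete complexes I, III, IV and V, summed to 51602 to 215278 FPKM at day 0, 237676 to 243764 at day 2, 144285 to 204160 at day 6 and 35535 to 111702 at day 10. Day 2 lay above day 0 and day 6 lay within it, while the nuclear members were below day 0 on both days. The median log2 fold change of the 12 that were tested was 0.64 at day 2, 0.56 at day 6 and -1.30 at day 10. Over all genes it was 0.51, 0.88 and 0.51. On these days 0 of the 12 passed in either direction, against 3.14%, 1.76% and 6.23% of all genes lower and 5.76%, 9.55% and 11.9% higher. No direction is therefore given for them. At day 10 the lowest and highest summed levels of cardiac muscle markers, 13.3 and 56.4 FPKM, stood beside summed levels of the nuclear members of 6202 and 15189 FPKM. In these day 10 libraries the cardiac muscle markers MYBPC3 and ACTN2 were between 0.103 and 0.633 FPKM, and TNNT2 was at 10.3, 7.12 and 5.26 FPKM.

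**Figure D5:**
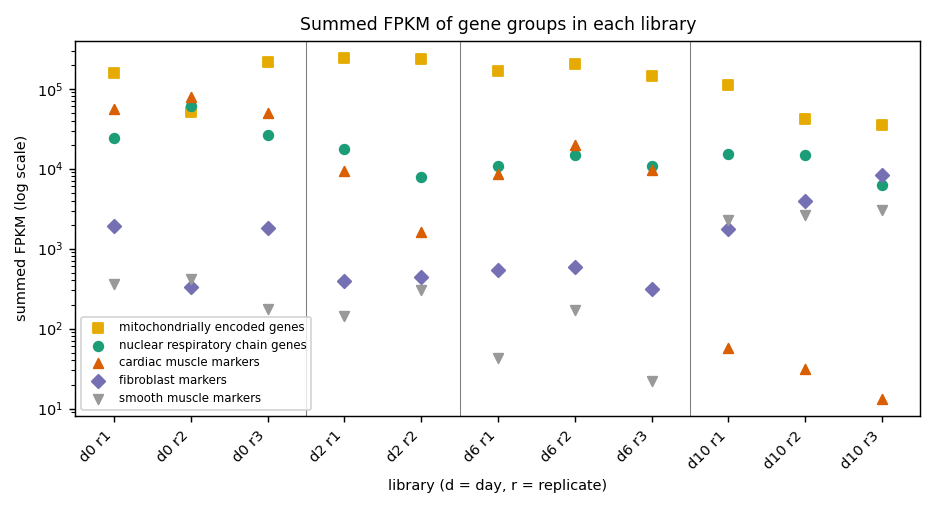
Summed FPKM (log scale) of 5 groups of genes in each of the 11 libraries (d for day, r for replicate). Nuclear respiratory chain genes lie between 6202 and 60272 FPKM throughout, while cardiac muscle markers are at 13.3 to 56.4 FPKM in the 3 day 10 libraries and fibroblast and smooth muscle markers are highest there in replicate 3.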

How the data were processed

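Total RNA had been extracted from frozen heart slices with Trizol and made into Illumina TruSeq libraries, per the labels' protocols. The authors deposited a table of FPKM values, 1 column per library, and all columns were matched to samples by name. Bowtie 0.12.2 and mm8, a mouse build name, appear in the submitters' processing notes without a role, while identifiers are those of pig Ensembl genes. No counter, annotation release, strand or rule for reads that match several genes is given in the sources used here, so genes with paralogues or processed pseudogenes, such as ATP5MC1 and ATP5MC3 or COX7A2 and COX7A2L, are uncertain to that extent.

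The members and lists, the tests and the rule for named genes were chosen with earlier results of these data known. The test took 12625 of 16319 genes, those whose mean over all libraries was 1 FPKM or more. Of the 56 members 55 were tested, and all 55 had a mean of at least 1 FPKM in every group. Values were taken as log2(FPKM + 1), so fold changes of low genes are understated. A model with the 4 groups was fitted with limma 3.58.1 (eBayes with trend; residual degrees of freedom 7, prior 5.89) under R 4.3.3, and 6 two-sided comparisons were read from it. Benjamini-Hochberg adjusted p-values are over all genes tested, with a threshold of 0.05. Reads and gene lengths were recovered from the whole steps of the FPKM values within 0.01 reads, and scripts were tested on simulated data. The lowest recovered count of a tested member in a library was 6 reads.

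Named members were both members of isoform pairs where listed, the 2 members of each complex with the highest day 0 mean, up to 3 members by p per complex and comparison with day 0, members called higher, and those called between cultured days. Members outside this rule, such as NDUFS1, SDHD, COX17, ATP5PO, ATP5MC3, ATP5ME and ATP5IF1, were named after their values were seen. Alternatives changed the pseudocount, filter, scaling, libraries in the fit, eBayes settings, weights and replicate block, left out libraries, or used limma voom on the recovered reads. No sequences are printed, and 1 member is counted but its own values are not reported here.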

Additional observations from a re-analysis of the deposited data

Results flagged for a closer look

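The effect of culture on NDUFA4 differed between day 10 and day 6. Against the same day 0 libraries its log2 fold change was -1.06 ± 0.56 at day 6 and -3.17 ± 0.56 at day 10, and the test of the difference itself gave -2.11 ± 0.56 (limma adjusted p = 0.047, lower in 3 of 3 day 10 libraries than in all 3 day 6 libraries). Over the 25 alternatives this value lay between -2.77 and -1.70, with limma adjusted p between 8.01e-05 and 0.329. It passed the threshold in 12 of them and did not in 13.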

How the results depend on the processing

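Numbers of members called at day 2, day 6 and day 10 against day 0 were 9, 6 and 18. With quantile normalization they were 20, 16 and 30, against 8.06%, 7.4% and 11.3% of all genes lower and 5.6%, 5.35% and 10.7% higher. With only the compared groups in the fit they were 0, 0 and 10. Those fits called 6, 75 and 546 of all 12625 genes lower and 11, 461 and 764 higher. Equal total scaling gave 5 at day 2 and 1 at day 6, against 1.92% and 0.863% of all genes lower. At day 6, a mean FPKM of at least 5 gave 11, with 206 of the 8199 genes then tested lower. Leaving out both libraries with the most genes at 0 gave 10 (4.97% of all genes lower), and limma voom gave 10 (3.34%). Array weights gave 42 (40 lower and 2 higher), with 33 at day 10 (30 lower and 3 higher). With array weights 52.5% and 43.3% of all genes were called on those days. Leaving out 1 library at a time, other than those of day 2, gave 5 to 16 calls at day 2, 0 to 8 at day 6 and 11 to 19 at day 10. Of all 12625 genes, 260 to 921 were then lower at day 2, 14 to 407 at day 6 and 545 to 1270 at day 10. For day 10 against day 6, with 1 call, the number was 0 with a pseudocount of 0.1, no filter, median ratio scaling, the replicate block, eBayes without trend or limma voom, 2 with equal total scaling, 3 with quantile normalization or only the compared groups, 5 without both of those libraries, 27 with array weights (14 lower and 13 higher, with 47.2% of all genes called) and 0 to 3 with 1 library left out. Day 6 and day 10 against day 2 gave 0 calls under every alternative run. For day 10 against day 6, 3.24% of all genes were lower with equal total scaling, 4.0% with quantile normalization and 13.8% without both of those libraries. With only the compared groups, 1281 of 12625 genes were lower. The cause of these shifts was not tested. Where 1 day 2 library was left out, the other was assumed to vary like the remaining groups.

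The replicate block gave 8, 6 and 18 calls against day 0 at days 2, 6 and 10, of which 7, 5 and 18 were shared with the fit without it. Of all genes, 2.38%, 1.38% and 5.96% were lower with the block and 4.51%, 7.3% and 10.7% higher. UQCRFS1 (limma adjusted p = 0.0645) and NDUFA9 (0.0566) were no longer called at day 2, nor NDUFV1 (0.0519) at day 6, and UQCRQ was called lower on both days. Whether replicate numbers pair the libraries was not tested, and the labels do not say so. Of 15 same-number pairs, 9 had a residual correlation above 0.1 (range -0.552 to 0.469), and 5 of 11 libraries correlated best with their own number.

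Of the single-gene results under the alternatives, 1466 kept their direction and side of the threshold, 134 lost and 57 gained a call, and 18 changed sign, all in COX7A2 and COX8A, which did not pass in the fit reported. COX7A2 at day 2 changed from -0.02 to 0.21 with equal total scaling, 0.29 with array weights, 0.25 without day 0 replicate 2 and 0.54 without day 2 replicate 2 (-0.58 to 0.54 over the libraries left out). At day 10 it changed from 0.05 to -0.69 with median ratio scaling or limma voom, -0.08 with equal total scaling, -0.17 with quantile normalization, and -0.14, -0.03, -0.49 and -0.13 without day 0 replicate 1, day 0 replicate 3, day 10 replicate 1 and day 10 replicate 2 (-0.49 to 0.75). COX8A at day 2 changed from -0.32 to 0.07 with array weights, 0.23 without day 0 replicate 2 and 0.11 without day 2 replicate 2 (-0.76 to 0.23), and at day 10 from 0.33 to -0.40 with median ratio scaling, -0.44 with limma voom and -0.07 without day 0 replicate 3 (-0.07 to 0.89), while array weights called it higher at 0.93 (limma adjusted p = 0.0222). The planned test of isoform ratios was not run, since no pair had both members tested. Groups of 2 and 3 libraries and members with as few as 6 reads in a library limit the precision.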
